A study of Mus musculus with 15 samples.

Results

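The ribosomal protein genes of the mouse were read in 15 libraries of fibroblasts sorted from the thymus, where T cells develop and whose size falls and recovers after irradiation. The genes were chosen by name alone: gene names that begin with Rpl or Rps and a number, or with Rplp and a number, without the S6 kinases (Rps6k names) and without rows whose name marks a pseudogene. This gave 80 genes of the 12763 in the count table. By name, 40 belong to the large subunit, 29 to the small subunit and 3 to the stalk, 7 are paralogs of a canonical gene, and 1, Rps19bp1, encodes a nucleolar partner of a ribosomal protein and not a ribosomal protein. GENCODE vM21 annotates 3 of the 7 paralogs, Rpl32l, Rpl37rt and Rps4l, as processed pseudogenes. Rpl39l, Rpl3l and Rpl26 were not analysed here.

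The mice were young wild-type males, either untreated or irradiated with a sublethal 425 rad 1 day or 3 days before the thymus was taken, and 5 libraries were made for each of the 3 groups. No agent other than irradiation was given, per the labels. The cell label gives the sort as CD45-, CD31-, CD34+, PDGFRalpha+ and, unusually for fibroblasts, EpCAM+. MARS-seq, the method used, counts the 3′ ends of polyadenylated RNA by unique molecular identifiers (UMIs), so that a molecule is counted once whatever its length. Library totals ran from 740169 UMIs, in day 1 replicate 1, to 3750214. Whether each replicate was a different mouse is not stated, and p-values therefore measure library-to-library spread. In bulk RNA, fewer cells of a type and less RNA per cell cannot be told apart, and with no spike-in every level is relative to the other RNA in its library.

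Ribosomal proteins are the protein part of the small and large ribosomal subunits, which are assembled with ribosomal RNA in the nucleolus. Their mRNAs are among the most abundant in growing cells and often begin with a terminal oligopyrimidine (TOP) tract, through which mTORC1 and LARP1 control their translation. When ribosome assembly is disturbed, free Rpl5 and Rpl11 bind Mdm2, the ligase that degrades p53, and Rps27l is itself a p53 target gene.

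The share of UMIs that came from ribosomal protein genes overlapped between all 3 groups, while on the TMM scale used for the gene tests the day 3 libraries lay above the untreated ones. In untreated fibroblasts 9.89%, 9.65%, 10.1%, 10.2% and 7.91% of a library's UMIs fell in the 80 genes, a mean of 9.56% ± 0.950 (SD, n = 5). At day 1 the values were 10.5%, 9.27%, 7.94%, 9.37% and 11.5%, with a mean of 9.72% ± 1.35. At day 3 they were 10.5%, 10.4%, 9.90%, 10.1% and 10.5%, with a mean of 10.3% ± 0.243. Untreated replicate 5 and day 1 replicate 3 were the lowest libraries, and the 5 day 3 libraries lay closest together. Large subunit genes held 4.51% ± 0.433, 4.64% ± 0.616 and 4.88% ± 0.126 of UMIs in untreated, day 1 and day 3 libraries, and small subunit genes held 4.04% ± 0.429, 3.88% ± 0.567 and 4.32% ± 0.0847.

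TMM (trimmed mean of M-values) adjusts library totals so that most genes do not differ between libraries, and it lowered the untreated values and raised the day 1 values. Scaled this way, the tested ribosomal protein genes summed to 72894 to 93091 CPM, scaled UMI counts, in untreated, 84563 to 122647 CPM in day 1 and 98250 to 105636 CPM in day 3 libraries. The means were 87789 ± 8510.3, 107747 ± 15810.2 and 102227 ± 3297 CPM (SD, n = 5). Day 3 did not overlap with untreated on this scale, and day 1 overlapped with both.

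**Figure D1:**
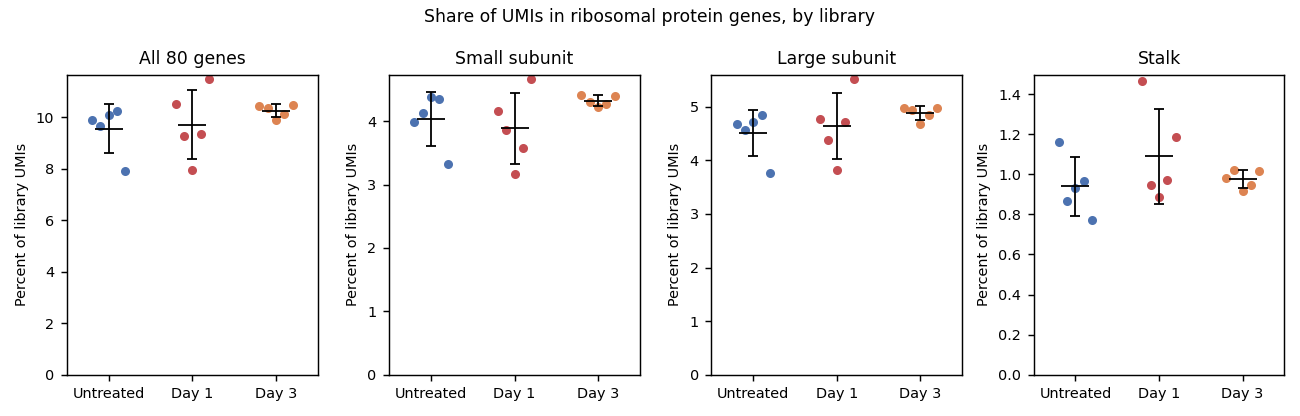
Percent of each library's UMIs (vertical axes, from 0) in all 80 ribosomal protein genes, in the small and large subunit genes and in the 3 stalk genes, by group; points are libraries and bars are mean ± SD (n = 5). These unadjusted shares overlap between groups in every panel, and the 5 day 3 libraries lie between 9.90% and 10.5% for all 80 genes.

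Of the 80 genes, 78 passed the filter on low counts, and these are the genes counted below. Levels are in CPM, UMI counts scaled to a common library size after adjustment of library totals by TMM, and log2 changes are given ± SE from edgeR's quasi-likelihood test, whose p-values were adjusted by Benjamini-Hochberg over the 10207 tested genes; a gene is called at an adjusted p under 0.05. Mean levels ran from 3.60 CPM for Rpl21 to 5715 CPM for Rplp1, with a median of 1133 CPM. The spread between libraries of a group, as the median coefficient of variation over the genes, was 20.1% in untreated, 24.8% in day 1 and 11% in day 3 libraries.

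At day 1, 21 ribosomal protein genes were called higher and 5 lower than in untreated libraries. The share higher, 26.9% of the 78, was near the 23.1% among all genes tested. The share lower, 6.41%, was under the 23.1% lower among all genes. In either direction 33.3% were called against 46.2%. Log2 changes ran from -1.11 for Rpl22 to 1.47 for Rps27l with a median of 0.23, against -0.02 over all genes, and 50 of the 78 were above 0. Only 4 of the 26 called genes changed by 2-fold or more, Rps27l and Rpl38 upward and Rpl22 and Rpl5 downward. The interquartile range of log2 changes was 0.58 for the ribosomal protein genes and 1.00 for all genes. By role, 11 large subunit genes were called higher and 3 lower of 40, 4 small subunit genes were higher and 2 lower of 28, and all 3 stalk genes and 3 of 6 paralogs were higher, the paralogs being Rps27l, Rpl36al and the annotated pseudogene Rps4l. Scaling by total counts instead of TMM gave 9 higher and 13 lower, and moved the median of all genes to -0.29 and that of the ribosomal protein genes to -0.04. Without untreated replicate 5, the library with the lowest ribosomal protein share, 8 genes were lower in place of 5. Leaving out 1 library at a time gave 16 to 25 higher and a median log2 change of 0.15 to 0.29, the lowest being that without day 1 replicate 5.

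**Figure D2:**
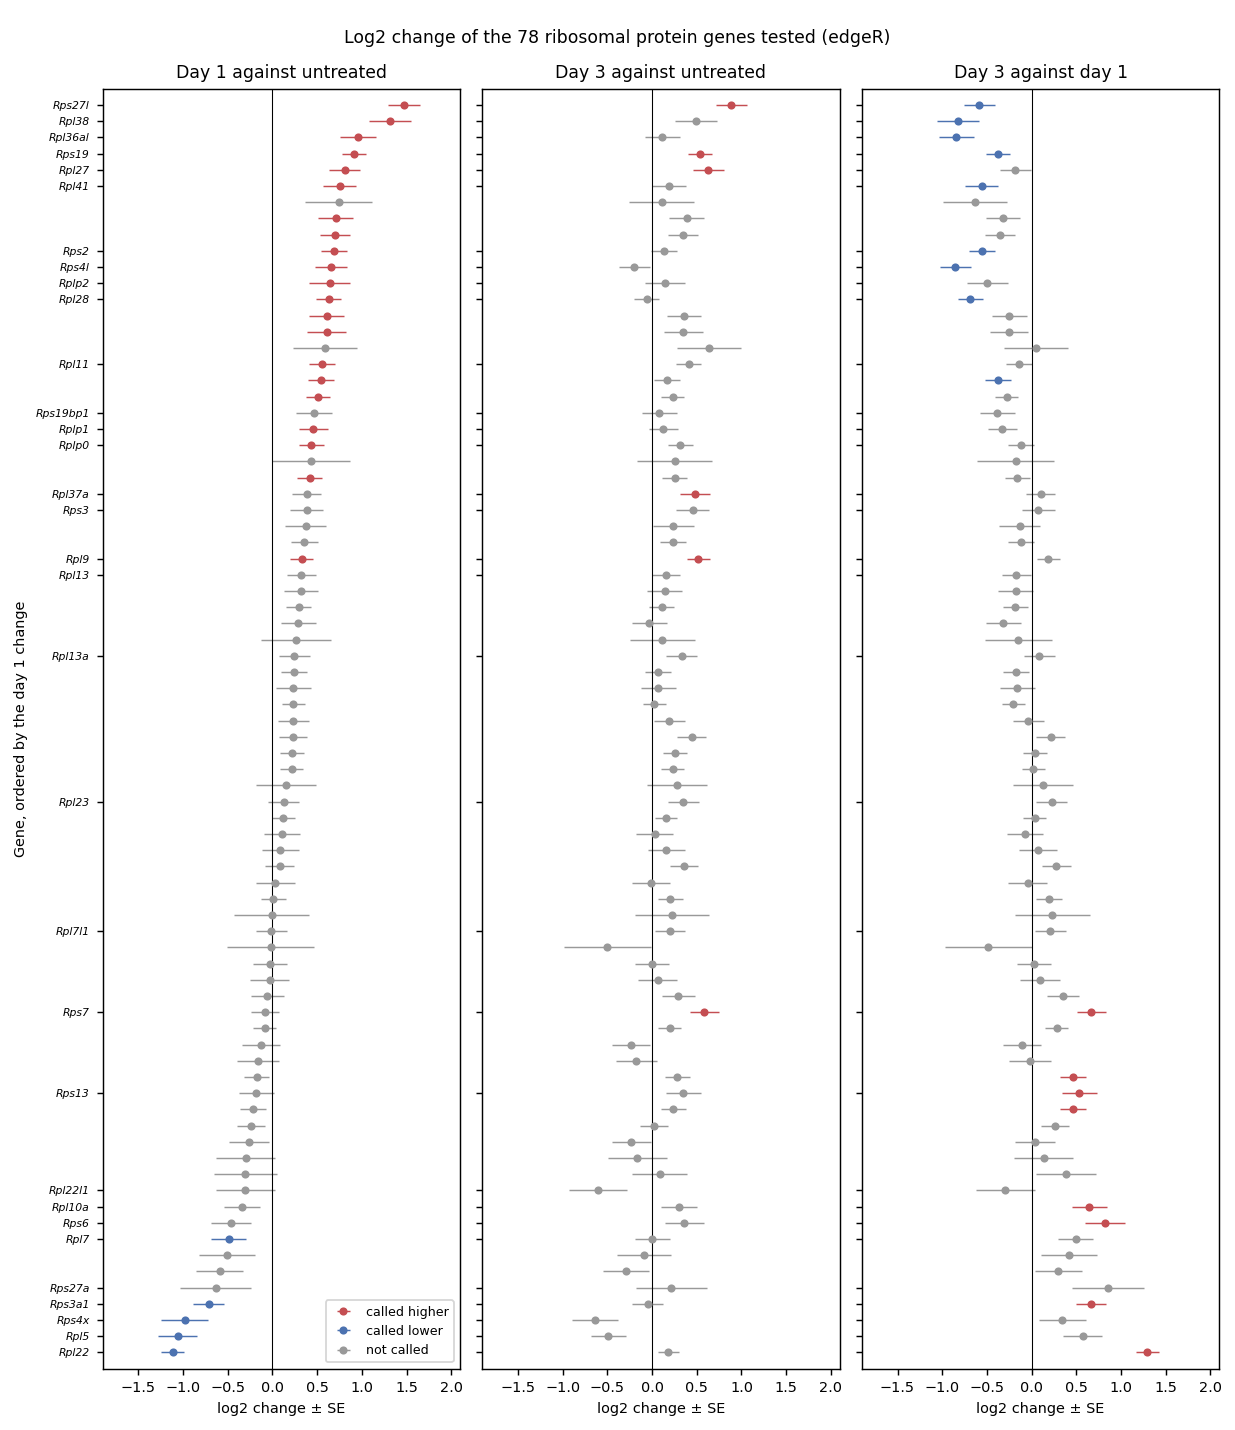
Log2 change ± SE (horizontal axes) of the 78 ribosomal protein genes tested, in the order of their day 1 change (vertical axis), for the 3 comparisons; red marks genes called higher, blue genes called lower and grey the rest, with some genes named at the left. At day 1 the genes run from -1.11 to 1.47, and at day 3 against untreated 6 are called, all higher. Both comparisons with untreated share the untreated libraries, and both with day 1 share the day 1 libraries.

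Rps27l, the paralog of the small subunit gene Rps27, rose most. Its level was 125, 151, 148, 135 and 99.6 CPM in untreated libraries, 498, 315, 254, 338 and 436 CPM at day 1 and 305, 256, 236, 203 and 219.8 CPM at day 3. All day 1 and day 3 libraries lay above all untreated ones, and every day 1 library but replicate 3 lay above the day 3 range. The log2 change was 1.47 ± 0.18 at day 1 (adjusted p = 1.01e-06), a fold of 2.78. Rps27l lies on chromosome 9 from 66946086 to 66949516 on the plus strand (GRCm38). Of the 50-base stretches in the last 300 bases of its coding transcripts, at most 21.9% per transcript occur in another annotated gene. This is one of the lower shares among these genes, and shares are given throughout for the coding transcript where they are highest.

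Rpl38, a large subunit protein whose loss in mice gives the Tail-short skeleton, was next. Untreated libraries held 405, 827, 789.6, 651 and 601 CPM, day 1 libraries 2663, 1169, 879.9, 1637 and 1819.5 CPM and day 3 libraries 1051, 845, 847, 802 and 1059 CPM. Day 1 replicate 1 stood far above the rest, but the lowest day 1 library was still above the highest untreated one. The change at day 1 was 1.31 ± 0.24 on the log2 scale (adjusted p = 1.48e-04). Rps19, the small subunit gene most often mutated in Diamond-Blackfan anaemia in people, was at 1835, 2105, 2183, 1937 and 1979 CPM untreated and 4205, 4014, 2942, 3576 and 4186 CPM at day 1. The groups did not overlap, and its log2 change was 0.91 ± 0.14 (adjusted p = 1.26e-05).

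Rpl36al, the autosomal counterpart of the X-linked large subunit gene Rpl36a, measured 101, 211, 219, 180.4 and 169 CPM in untreated and 378, 318, 203, 389 and 434 CPM in day 1 libraries. Only day 1 replicate 3 fell within the untreated range, and the log2 change was 0.96 ± 0.20 (adjusted p = 4.33e-04). The large subunit gene Rpl27 rose from 296 ± 38.8 CPM to 520.1 ± 112 CPM with no overlap, a log2 change of 0.81 ± 0.18. Rpl41, which encodes the shortest of these proteins, went from 2062 ± 362 CPM to 3469.5 ± 968 CPM, a log2 change of 0.75 ± 0.19, with day 1 replicate 3 inside the untreated range.

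The stalk, the flexible arm of the large subunit that recruits elongation factors, rose as a whole at day 1. Rplp0, its base, was at 2502, 1727, 1943, 1863 and 1734 CPM untreated and 2594, 2421, 2569, 2799 and 2816 CPM at day 1, and untreated replicate 1 overlapped the day 1 range. The log2 changes were 0.43 ± 0.14 for Rplp0, 0.45 ± 0.16 for Rplp1 and 0.64 ± 0.23 for Rplp2, with adjusted p of 0.016, 0.027 and 0.027. Day 1 replicate 1 was highest for Rplp1, at 9524 CPM, and Rplp2, at 4932 CPM. With total counts none of the 3 calls held, the changes being 0.17, 0.18 and 0.36 in the same order. Without day 1 replicate 1 the changes of Rplp1 and Rplp2 were 0.32 and 0.32 (adjusted p = 0.070 and 0.12); without untreated replicates 2 and 5 in turn both calls were also lost, at 0.43 and 0.40 for Rplp1 and 0.60 and 0.53 for Rplp2, and that of Rplp1 also without untreated replicate 3, at 0.45. Over all alternatives the adjusted p ran from 0.0090 to 0.35 for Rplp1 and from 0.010 to 0.18 for Rplp2.

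Other large subunit genes rose less. Rpl11, which forms the 5S particle with Rpl5, was at 2007, 1311, 1391, 1339 and 1366 CPM untreated and 2148, 2104, 1959, 2516 and 2144 CPM at day 1, and untreated replicate 1 alone reached the day 1 range. Its log2 change was 0.55 ± 0.14 (adjusted p = 0.0035), and 0.28 with total counts, where the call was lost. Rpl28 rose by 0.63 ± 0.14, with day 1 replicate 3 inside the untreated range. The small subunit gene Rps2 rose by 0.69 ± 0.15, with untreated replicate 1 at 3219 CPM inside the day 1 range.

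Rpl22 fell most. This large subunit protein is dispensable for most tissues of the mouse but needed for alpha-beta T cells, and represses its own paralog Rpl22l1. Untreated libraries held 79.1, 86.5, 88.5, 73.6 and 91.1 CPM, day 1 libraries 39.4, 37.5, 38.3, 43.5 and 34.8 CPM and day 3 libraries 89.1, 95.8, 93.8, 100.01 and 96.7 CPM. Every day 1 library lay far below every other library, and the 5 day 1 values lay close together. The log2 change at day 1 was -1.11 ± 0.13 (adjusted p = 5.50e-07), a fold of 0.462.

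Rpl5, the other protein of the 5S particle, was at 23.8, 31.5, 34.5, 36.6 and 24.3 CPM untreated, 4.72, 18.8, 11.7, 13.4 and 20.3 CPM at day 1 and 21.7, 24.0, 17.7, 22.0 and 22.6 CPM at day 3. The day 1 values lay below the untreated ones without overlap, and the change was -1.06 ± 0.22 (adjusted p = 4.89e-04). These are low values, from 3 UMIs in day 1 replicate 1 to 109 UMIs in the fullest library. In the more shared of the 2 coding transcripts of Rpl5, all of the 3′ stretches occur in another annotated gene. At day 1 the counts of Rpl5 and Rpl11 moved in opposite directions. Rpl11 has the same highest 3′ share, 100%, so the levels of both genes are uncertain.

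Rps4x, the X-linked small subunit gene, was at 604, 680.4, 746, 876 and 335 CPM untreated and 348, 307, 180.4, 236 and 575 CPM at day 1. Untreated replicate 5 alone lay within the day 1 range, and the change was -0.98 ± 0.26 (adjusted p = 0.0051). The small subunit gene Rps3a1 went from 1587, 1591, 1768, 1843 and 1196 CPM to 829.9, 1151, 698, 929 and 1257 CPM, a change of -0.71 ± 0.17 (adjusted p = 0.0019), with only untreated replicate 5 and day 1 replicate 5 crossing. For the large subunit gene Rpl7 the change of -0.49 ± 0.19 was near the threshold (adjusted p = 0.044, 0.0043 to 0.092 over the alternatives). Leaving out any 1 of untreated replicates 1 to 4, day 1 replicates 1, 3 and 4 or day 3 replicates 1, 2 and 4 ended that call, with changes between -0.50 and -0.31.

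**Figure D3:**
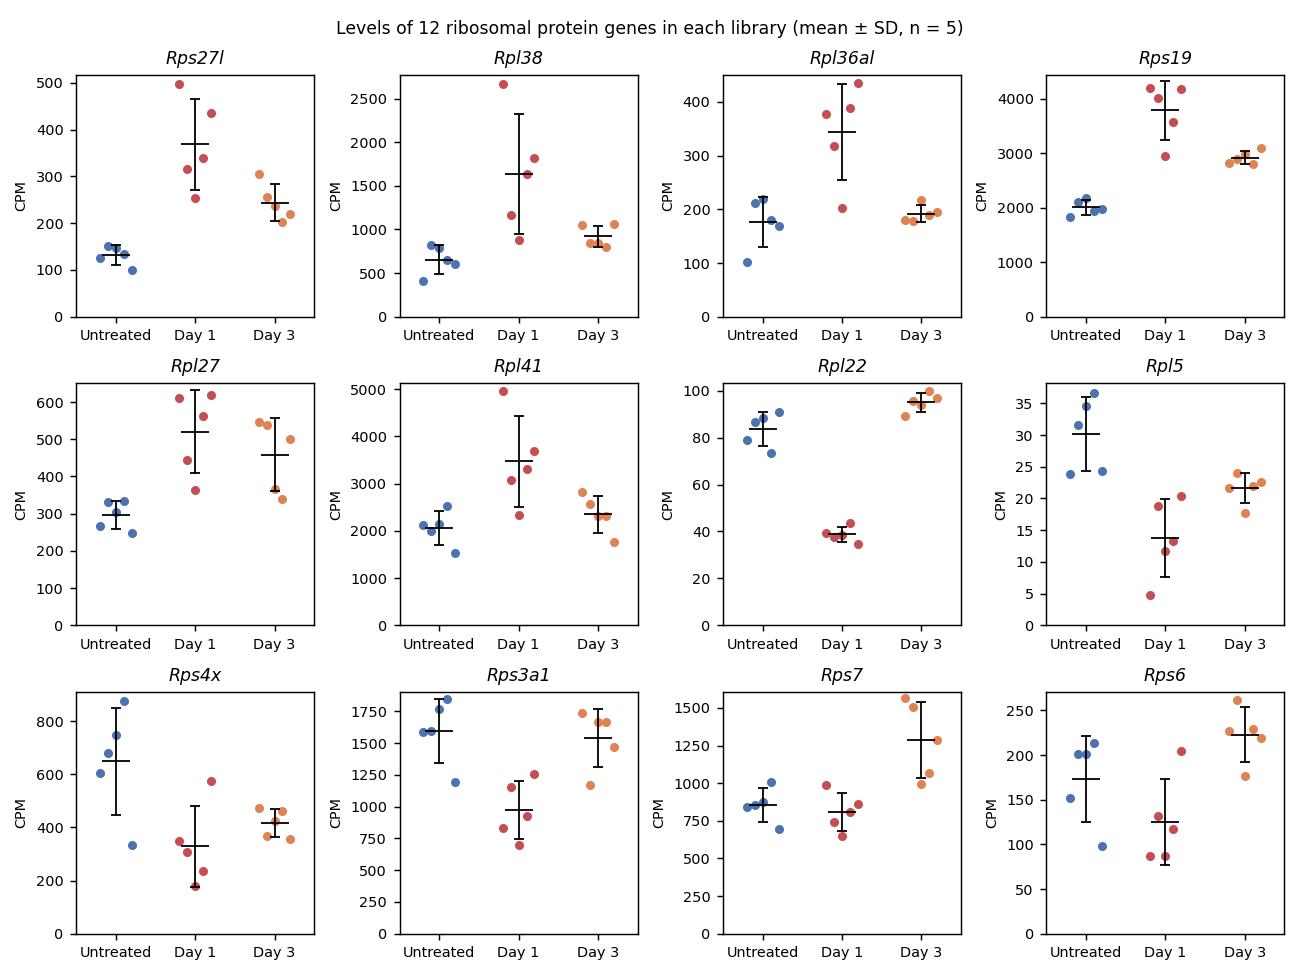
CPM (vertical axes, from 0) of 12 ribosomal protein genes in each library by group; points are libraries and bars are mean ± SD (n = 5). Rps27l is above the untreated range in all irradiated libraries, while Rpl22 lies between 34.8 and 43.5 CPM at day 1 and at 73.6 CPM or more elsewhere.

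The start sites of the genes that rose and fell most are set side by side because a TOP tract at the first base is the known shared mark of these mRNAs. Each line gives the 30 bases around the start annotated by RefSeq (GRCm38.p6), 15 before it and 15 from it on, on the gene's strand, with the tract in capitals where a C followed by at least 4 bases that are each C or T begins within 5 bases of the start. The first 6 genes had the largest rises at day 1, and the last 4 are the genes that fell, but for Rpl7, which was not matched.
Rps27l, chr9:66946071-66946100 (plus strand): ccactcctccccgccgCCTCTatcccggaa
Rpl38, chr11:114668565-114668594 (plus strand): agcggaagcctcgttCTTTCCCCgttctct
Rps19, chr7:24884577-24884606 (plus strand): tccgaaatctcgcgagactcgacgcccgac
Rpl36al, chr12:69184053-69184082 (minus strand): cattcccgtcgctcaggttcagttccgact
Rpl27, chr11:101442230-101442259 (plus strand): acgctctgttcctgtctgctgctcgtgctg
Rpl41, chr10:128549154-128549183 (minus strand): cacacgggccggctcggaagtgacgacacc
Rpl22, chr4:152324421-152324450 (plus strand): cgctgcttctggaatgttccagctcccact
Rpl5, chr5:107900513-107900542 (plus strand): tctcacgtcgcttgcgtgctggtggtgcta
Rps4x, chrX:102189377-102189406 (minus strand): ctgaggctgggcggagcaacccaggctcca
Rps3a1, chr3:86142654-86142683 (minus strand): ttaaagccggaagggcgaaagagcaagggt

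Rpl38 has a tract of 8 pyrimidines exactly at its annotated start, and Rps27l one of 5 that begins 1 base after it. No such tract lies within 5 bases of the start shown for the other 8 genes; Rps27l, Rps19 and Rpl22 have further annotated starts, also without one. Of the 59 tested genes matched to a RefSeq start, 20.3% had a tract at the start itself and 45.8% within 5 bases, against 3.01% and 24.3% of the 8177 tested genes matched. The sense strand alone was read, and no other motif was searched. At day 1, 7 of the 27 genes with a tract within 5 bases were called higher and 0 lower. Of the 32 without one, 8 were higher and 4 lower. Among all genes tested, 23.1% were higher and 23.1% lower. The genes with and those without a tract both had a median log2 change of 0.23. A tract that begins more than 5 bases from an annotated start was not counted. Genes without one here may therefore still be TOP mRNAs.

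By day 3 few ribosomal protein genes differed from untreated: 6 were called higher, 7.69% of the 78 against 9.2% higher among all genes. None was called lower, against 9.25% of all genes; 2 were lower at an unadjusted p under 0.05 with edgeR, and DESeq2 and limma voom called none lower. In either direction the background was 18.4%. The median log2 change was 0.19 against -0.01 for all genes, 63 of 78 were above 0, and none of the called genes reached 2-fold. Rps27l remained the furthest, at 0.89 ± 0.18 (adjusted p = 0.0015), with no overlap. The other 5 were Rpl27 at 0.63 ± 0.17, Rps7 at 0.59 ± 0.16, Rps19 at 0.54 ± 0.13, Rpl9 at 0.52 ± 0.13 and Rpl37a at 0.48 ± 0.16.

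Rps7, a small subunit protein that can also bind Mdm2, is an example of a gene near its untreated level at day 1 and above it at day 3. Its values were 845, 857, 876, 1009 and 694 CPM untreated, 986, 741, 649.8, 809 and 862 CPM at day 1 and 1563, 1509, 995, 1071 and 1287 CPM at day 3. Day 3 replicate 3 alone, at 995.4 CPM, fell within the untreated range, and the day 3 change had an adjusted p of 0.014. The highest share of 3′ stretches that occur in another annotated gene is 99.6% for Rps7, so its level is uncertain. Of the other genes called at day 3, this share is 100% for Rpl9, 95.2% for Rps19, 83.3% for Rpl27 and 4.38% for Rpl37a. The call of Rpl37a (adjusted p = 0.045, 0.0072 to 0.12 over the alternatives) was lost with total counts, with the replicate number as a block and without any 1 of untreated replicates 1, 2, 3 and 5, day 1 replicate 4 or any day 3 replicate, at log2 changes between 0.36 and 0.51. The number of genes called depended on the fit: 10 were higher with DESeq2, 10 without untreated replicate 1, and 14 higher and 2 lower when only untreated and day 3 libraries were fitted.

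Between day 1 and day 3 the genes moved both ways: 8 were higher at day 3 and 9 lower, 10.3% and 11.5% of the 78 against 16.1% and 16.6% of all genes, and 21.8% against 32.7% in either direction. The median log2 change was -0.03 against 0.01 for all genes. Scaled by total counts, 15 were higher and 5 lower. This comparison shares its day 1 libraries with the first, so a gene high or low at day 1 enters both. Rpl22 rose most, by 1.30 ± 0.13 (adjusted p = 1.17e-07), the only called gene past 2-fold. Rps6, the substrate of the S6 kinases, rose by 0.82 ± 0.22, from 86.6, 132, 86.8, 118 and 204 CPM to 227, 262, 176, 229 and 219 CPM, with day 1 replicate 5 inside the day 3 range.

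Rps7 rose by 0.67 ± 0.16, Rps3a1 by 0.66 ± 0.17, Rpl10a by 0.65 ± 0.20 and Rps13 by 0.53 ± 0.20. The Rps13 call (adjusted p = 0.04, 0.0087 to 0.11 over the alternatives) was lost without any 1 of day 1 replicates 2, 3 and 4 or day 3 replicates 1, 2 and 5, at changes between 0.45 and 0.53. The falls were led by Rps4l at -0.85 ± 0.17, Rpl36al at -0.84 ± 0.20, Rpl38 at -0.82 ± 0.24 and Rpl28 at -0.68 ± 0.14. Rps27l at -0.59 ± 0.17 and Rpl41 at -0.56 ± 0.19 followed. The Rpl41 call (adjusted p = 0.025, 0.0063 to 0.096 over the alternatives) was lost without day 1 replicate 1, at -0.41, without day 3 replicate 5, at -0.47, and with total counts, at -0.40; with total counts Rps27l also lost its call, at -0.43.

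Several ribosomal proteins have a paralog, some of which can take the canonical protein's place, and the ratio of a pair depends little on how libraries are scaled. The log2 ratio of Rpl36al to Rpl36a was -1.17, -1.13, -1.07, -1.39 and -0.73 in untreated, 0.06, -0.27, 0.02, 0.23 and -0.12 in day 1 and -0.83, -0.54, -0.77, -0.84 and -0.75 in day 3 libraries. The means were -1.10 ± 0.24, -0.02 ± 0.19 and -0.75 ± 0.12 (SD, n = 5), and day 1 stood apart from both other groups. The highest share of 3′ stretches that occur in another annotated gene is 100% for Rpl36a and 70.1% for Rpl36al. Reads of this pair may therefore be hard to separate from those of other genes. An exact two-sided permutation test over the 252 assignments of 5 against 5 gave the smallest p it can give, 0.00794, for day 1 against untreated and for day 3 against day 1, each with an adjusted p of 0.0191 over the 12 tests made. For day 3 against untreated the difference was 0.35 (exact permutation p = 0.0397, adjusted 0.0794), and it passed the threshold without untreated replicate 5, at 0.44.

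The ratio of Rps4l to Rps4x was -2.50, -3.07, -3.26, -3.47 and -2.39 in untreated, -1.07, -1.50, -1.04, -0.55 and -2.24 at day 1 and -2.87, -2.51, -2.34, -2.72 and -2.32 at day 3. It was 1.66 higher at day 1 than in untreated libraries and 1.27 lower at day 3 than at day 1, without overlap (exact permutation p = 0.00794, adjusted 0.0191 for both). Rps4l, on chromosome 6 from 148354656 to 148355598, is annotated in GENCODE vM21 as a transcribed processed pseudogene, so its reads and those of Rps4x may be hard to separate. For Rpl22l1 over Rpl22 the values were -0.13, 0.80, 0.56, 0.97 and -0.56 untreated, 0.52, 1.65, 0.10, 0.68 and 2.24 at day 1 and -0.23, -0.66, -0.06, -0.38 and -0.48 at day 3. Day 3 lay below day 1 by 1.40 without overlap (exact permutation p = 0.00794, adjusted 0.0191), while day 1 against untreated differed by 0.71 with overlap (exact permutation p = 0.206, adjusted 0.248). Rpl22l1 itself ranged widely, from 61.7 to 151 CPM untreated, 41.2 to 166 CPM at day 1 and 60.5 to 90.3 CPM at day 3. Rpl7l1 over Rpl7 passed in no comparison, with differences of 0.57, 0.18 and -0.38 and adjusted p from exact permutation tests of 0.119, 0.341 and 0.286.

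**Figure D4:**
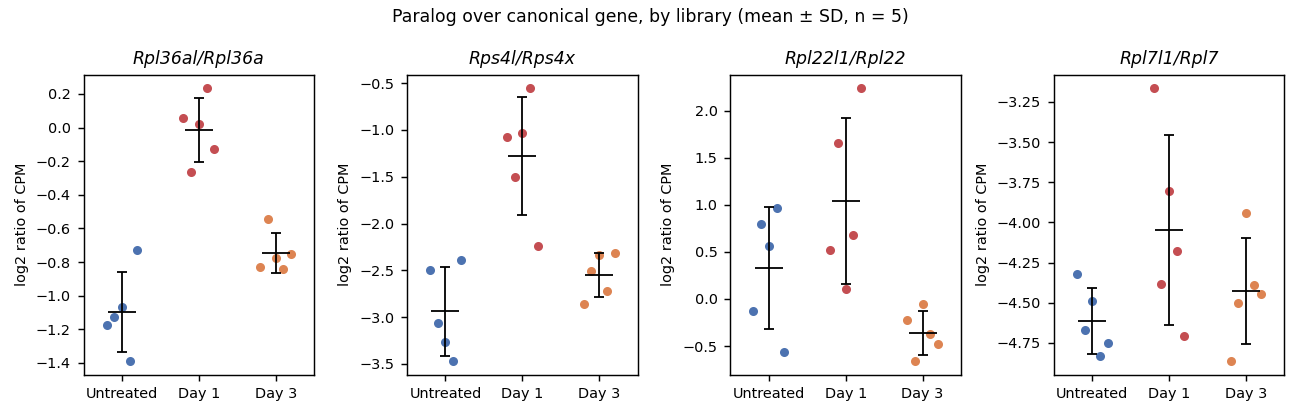
Log2 ratio of CPM of a paralog to its canonical gene (vertical axes) in each library by group; points are libraries and bars are mean ± SD (n = 5). The ratios of Rpl36al to Rpl36a and of Rps4l to Rps4x lie higher in all 5 day 1 libraries than in any other library.

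At day 1, short ribosomal protein genes tended to rise more than long ones. For the 76 tested genes with a coding length in GENCODE vM21, lengths ran from 75 bases for Rpl41 upward. Among them Spearman's rho between coding length and the log2 change at day 1 was -0.39 (Pearson's r -0.39), against -0.10 over 9898 genes. The 9898 genes were not matched to the 76 in length or level, so the rho values are not directly comparable in any comparison. Split at 462 coding bases, 14 of the 38 shorter genes were higher and 1 lower, with a median log2 change of 0.34. Of the 38 longer ones 6 were higher and 4 lower, with a median of 0.08. Among all genes tested, not split by length, 23.1% were higher and 23.1% lower. For day 3 against untreated rho was 0.03, and for day 3 against day 1 it was 0.53, against 0.03 over all genes. These are descriptions across genes that share the same libraries, and genes are not independent replicates.

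The relation was weaker without the shallowest libraries. Shorter genes took 41.3%, 47.7%, 47.7%, 47.8% and 45.0% of ribosomal protein UMIs in untreated libraries, 57.2%, 49.7%, 45.6%, 47.4% and 51.0% at day 1 and 47.0%, 45.7%, 47.5%, 45.0% and 45.5% at day 3. The extremes were day 1 replicate 1, with 740169 UMIs the shallowest library, and untreated replicate 1, with 1102176 the shallowest of its group. Without day 1 replicate 1, rho was -0.28 at day 1 and 0.40 for day 3 against day 1, and without untreated replicate 1 it was -0.28 at day 1 and 0.15 at day 3. The part of depth in this relation was not tested. GC content went with the day 1 change too, with rho 0.33 among the ribosomal protein genes and 0.35 over all genes.

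**Figure D5:**
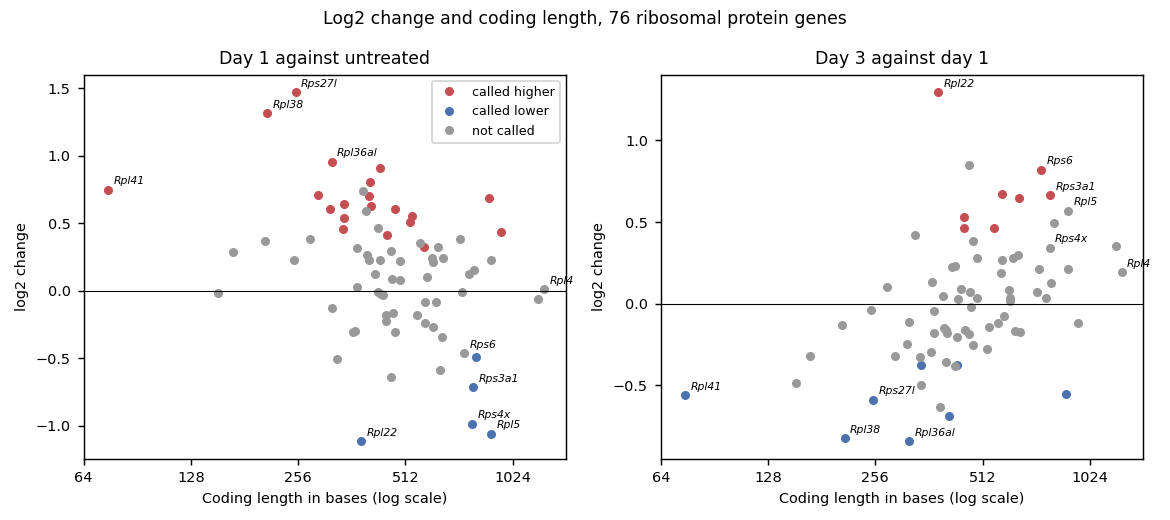
Log2 change (vertical axes) against coding length in bases (horizontal axes, log scale) for 76 ribosomal protein genes, at day 1 against untreated and at day 3 against day 1; red marks genes called higher, blue genes called lower and grey the rest, and a few genes are named. At day 1 the 2 largest rises, Rps27l and Rpl38, are short genes, and 4 of the 5 genes called lower are on the right of the plot, Rpl22 being the exception.

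Ribosomal protein genes have many processed pseudogenes, and how the authors' counting treated reads with several matches is not given in the sources used here. Of the 76 tested genes with coding transcripts in the annotation, 8 shared none of the 50-base stretches of their last 300 bases with another annotated gene. The median share was 75.9%, taken for each gene from its coding transcript with the highest share. On that measure all were shared for Rps27, which had 0 to 8 UMIs in a library and did not pass the filter. For Rpl22, 23.9% were shared. Across the 76 genes Spearman's rho between this share and the day 1 log2 change was -0.05. Levels of single genes are uncertain where the share is high. Rpl32l, with 3 to 25 UMIs, was the other gene below the filter.

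Some genes widely used as references or known for roles outside the ribosome did not pass at day 1 in the edgeR fit to all libraries. Rpl13a, a common reference gene, was at 2218 ± 595 CPM untreated, 2629 ± 475 CPM at day 1 and 2790.4 ± 248 CPM at day 3. Rps27a, made as a fusion with ubiquitin, ranged from 254 to 1165 CPM untreated, 217 to 822 CPM at day 1 and 701 to 952 CPM at day 3. Rps3, also described in DNA repair, was at 769 ± 202 CPM, 1001 ± 209 CPM and 1055 ± 130.1 CPM in the same order. Rpl23, whose free protein can bind Mdm2, was at 989 ± 251 CPM, 1080.0 ± 205 CPM and 1262 ± 132 CPM. Over the alternatives the adjusted p at day 1 ran from 0.040 to 0.91 for Rpl13a and from 0.013 to 0.63 for Rps3. Each of these was called higher under 1 of them, while Rpl23 and Rps27a were called under none. Among the most abundant genes, Rpl13 was at 2631 ± 429 CPM untreated and 3293 ± 589.7 CPM at day 1, where it was not called (log2 change 0.32, adjusted p = 0.099), and Rps2 was at 2361 ± 504 CPM and 3805 ± 417 CPM. With DESeq2 and, in edgeR, without day 1 replicate 1, Rpl13 was called higher at day 1 (adjusted p from 0.0497 to 0.78 over the alternatives, with log2 changes of 0.06 to 0.39).

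Other genes of the pathway were counted in the same way, against the 23.1% higher and 23.1% lower among all genes at day 1, 9.2% and 9.25% at day 3 and 16.1% and 16.6% from day 1 to day 3. Of the ribosomal proteins outside the name rule, Rpsa rose by 0.58 at day 1 (adjusted p = 0.0020), while Rack1 and Fau were not called in any comparison. Of 75 tested ribosome biogenesis genes, 18 were higher and 4 lower at day 1 and 3 were higher and 2 lower at day 3; from day 1 to day 3, 1 was higher and 19 lower. The share higher at day 1, 24.0%, was near the background, the share lower, 5.33%, was under it, and the share lower from day 1 to day 3, 25.3%, was above it. Examples are the nucleolar proteins Ppan and Nop56, higher at day 1 by 1.20 and 0.86, the rRNA methyltransferase Nop2, higher by 1.19, and Dkc1, the pseudouridine synthase, lower by a log2 change of -0.88. The median log2 change of the list was 0.25 at day 1 and -0.24 from day 1 to day 3, against -0.02 and 0.01 for all genes. Of 16 genes of RNA polymerase I and its cofactors, 5 were higher at day 1, or 31.2%, among them the shared subunits Polr1c at 0.48 and Polr1d at 0.45, against the background of 23.1%.

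Of 29 other TOP mRNAs, a list that overlaps with those above, 4 were higher and 5 lower at day 1, both under the background at 13.8% and 17.2%, with a median of 0.04. At day 3, 7 (24.1%) were higher and 1 lower, with a median of 0.22. Elongation factor Eef1a1 fell by 0.48 at day 1 and Eef2 rose by 0.49 at day 3. Of 28 genes of mTORC1 and its regulators, 7 were higher and 6 lower at day 1, and these shares of 25.0% and 21.4% were near the background. Among those called, the inhibitors Ddit4 and Sesn2 rose by 3.23 and 1.79, and the inhibitor Deptor changed by -2.16. Within the MYC network 3 of 8 were higher and 1 lower at day 1, or 37.5% and 12.5% of few genes, with Myc at 0.90 (adjusted p = 0.0049) and its antagonist Mxd1 at 2.37. Mdm2 rose from 52.0 CPM to 314.4 CPM at day 1, a log2 change of 2.57, and was at 129.8 CPM at day 3, while Trp53, Mdm4 and Cdkn2a were not called.

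Cell type markers moved between the same groups. The 8 fibroblast markers summed to 29650 to 36430 CPM in untreated, 8642 to 20530 CPM at day 1 and 25330 to 28640 CPM at day 3, with 6 of 8 lower and 1 higher at day 1. Of the genes of the sort, Pdgfra went from 310.2 CPM to 111.4 CPM and Cd34 from 1571 CPM to 523.0 CPM at day 1, while Epcam had 11, 10 and 10 UMIs in all over the untreated, day 1 and day 3 libraries. Macrophage and dendritic cell markers summed to 183.1 to 724.7 CPM, 1016 to 1765 CPM and 109.5 to 210.9 CPM in the same order, with 9 of 11 tested higher at day 1. For mesothelial markers the sums were 121.9 to 434.7 CPM, 488.2 to 3369 CPM and 351.1 to 1686 CPM, with 9 of 9 higher at day 1, and for pericyte and smooth muscle markers 218.3 to 419.4 CPM, 471.9 to 760.6 CPM and 171.9 to 364.3 CPM. The 4 thymic epithelial markers in the table, Epcam included, summed to 12.5 to 27.3 CPM, 13.1 to 186.9 CPM and 18.7 to 102.8 CPM. T cell markers stayed between 2.02 and 49.3 CPM and endothelial markers between 40.03 and 163.8 CPM, and Cd8a, at day 1, was the one gene of these lists in the table that was at 0 throughout a group. The part of other cell types in the changes of the ribosomal protein genes was not tested.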

How the data were processed

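Raw UMI counts per gene for 15 libraries were taken as the authors deposited them, unscaled per the file headers; the authors' normalized columns and comparisons were not used. Per the submitters' processing notes the tools were STAR 2.5.2b, HTSeq, cutadapt, bcl2fastq and DESeq2, and the build was mm10; the treatment of reads with several matches is not given in the sources used here. The ribosomal protein genes, gene lists, tests and alternatives were chosen with earlier results of these data known.

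Counts were analysed with edgeR 4.0.16 (R 4.3.3), and ratios, lengths and figures with Python 3.11.15; limma 3.58.1 and DESeq2 1.42.0 served as alternatives. The filter filterByExpr kept 10207 of 12763 genes, libraries were scaled with TMM, and 1 robust quasi-likelihood model with group as the factor was fitted to all libraries (biological coefficient of variation 0.201); p-values were adjusted over all genes tested, with a threshold of 0.05. The code was tested on simulated data. Paralog ratios were log2 ratios of CPM + 0.5. No pair of libraries of the same group agreed within sampling noise.

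The text names, for each comparison, the 6 largest called rises and falls at 20 CPM or more in a group, a fixed set of paralogs, stalk genes and genes with known roles, the 5 most abundant genes and those below the filter. Rps2 enters as an abundant gene, and results for a few genes are not reported here. Pathway genes named as examples were chosen after their values were seen. Coordinates and lengths are those of GENCODE vM21 (GRCm38). Start sites are from RefSeq (GRCm38.p6), matched by symbol for 61 of the 80 genes. The genes not matched include Rpl17, Rpl21, Rpl23a, Rpl29, Rpl3, Rpl32, Rpl36, Rpl7, Rpl8, Rplp1, Rps14, Rps27a, Rps29 and Rps4l. Alternatives were DESeq2, limma voom, RLE or total-count scaling, scaling without the ribosomal protein genes, other filters, only the groups compared, a replicate block and leaving out each library; the length relation was also tried under each, as chosen after seeing the data.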

Additional observations from a re-analysis of the deposited data

Results flagged for a closer look

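In all, 111 groups of 5 libraries were checked, for the share of UMIs, the named genes and the paralog ratios. Of these, 6 had a library whose gap to its nearest neighbour was over 0.71 of the group's range. Chance flags about 1 group in 20. The ribosomal protein share of untreated replicate 5 was 7.91%, below 9.65% to 10.2% in the other untreated libraries. In untreated replicate 1, Rpl11 was at 2007 CPM against 1311 to 1391 CPM in the others, and Rplp0 at 2502 CPM against 1727 to 1943 CPM. In untreated replicate 4, Rpl28 was at 1497 CPM against 1197 to 1281 CPM. In day 1 replicate 3, Rpl7l1 was at 33.5 CPM against 29.2 to 30.2 CPM. In day 3 replicate 3, Rpl37a was at 1168 CPM against 1040.0 to 1074 CPM.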

How the results depend on the processing

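Most counts and values kept their direction and their side of the threshold under the alternatives. Exceptions are given here and with the genes above, and their cause was not tested. With total counts the ribosomal protein genes at day 1 were 9 higher and 13 lower with a median log2 change of -0.044, 1 was lower at day 3 against untreated, and 15 were higher and 5 lower at day 3 against day 1; Rpl13a and Rpl23 turned to -0.026 and -0.15 at day 1. The higher genes at day 3 against untreated numbered 10 with DESeq2, and 14 higher and 2 lower with only the groups compared. With TMM computed without the ribosomal protein genes, their summed CPM was 97296 untreated, 119813 at day 1 and 113398 at day 3. Library totals here also left these genes out. The day 1 and day 3 values are thus 11.98% and 11.34% of the scaled total of the other genes. They are not shares of all UMIs in a library. On this scale day 3 lay wholly above untreated (108906 to 117257 against 80470 to 103234 CPM). Leaving out 1 library at a time gave 4 to 8 lower at day 1, 5 to 10 higher and 0 to 1 lower at day 3, a Rpl36al/Rpl36a difference of 0.28 to 0.44 at day 3 against untreated, and day 1 changes of -0.12 to 0.063 for Rpl7l1 and -0.30 to 0.040 for Rps13. Rpl7l1 was at 0.0010 with DESeq2 and 0.020 with limma voom. Genes called at day 1 that total counts alone lost include Rpl11, Rplp0 and Rps4l.

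The labels do not state that the replicate numbers pair the libraries. Deviations of same-numbered libraries correlated between -0.35 and 0.17, which cannot show whether those libraries were handled together. With a replicate block, 20 were higher and 5 lower at day 1, 5 higher and 0 lower at day 3, and 8 higher and 7 lower at day 3 against day 1. Library totals of 740169 to 3750214 UMIs limit the low genes most: Rpl21, Rps15a and Rps24 had 2 to 23 UMIs in a library, and a difference there was not detectable unless large.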

Other observations

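Rows marked as pseudogenes of ribosomal protein genes, outside the name rule, held few UMIs. Rpl14-ps1 had 22 to 84 UMIs in a library and 223, 153 and 262 in all over untreated, day 1 and day 3 libraries. Rps19-ps3 had 44, 40 and 64, Rps6-ps4 had 41, 18 and 51, and Rps15a-ps4 had 9, 7 and 3. Rpl37rt, a retrocopy by name, was the most variable of the ribosomal protein genes at day 1, with a coefficient of variation of 86.2% over the 5 libraries. Among the 1524 genes whose mean level reached 100 CPM, a limit chosen after seeing the data and one that most ribosomal protein genes pass, 61.5% were called at day 1, 23.4% at day 3 and 49.5% between day 1 and day 3, against 33.3%, 7.69% and 21.8% of the 78 ribosomal protein genes.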
